A study of Mus musculus with 8 samples.

Results

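The data cover 51 mouse genes whose symbols fall outside the best-known interferon families. These genes were read more often in libraries labelled Zmynd11 knockout (KO) than in libraries labelled wild type (WT). They were so both under the label 0 h, with no agent, and under the label 2 h, with interferon-beta. They were chosen from 23304 gene symbols by a rule on CPM, the reads of a gene divided by all gene reads of the library and multiplied by 1000000. Each gene had at least 1 CPM in all 4 KO libraries, and its lowest KO library held at least 1.5 times the CPM of its highest WT library at 0 h and again at 2 h. Of 10845 genes with at least 1 CPM in all 4 KO libraries, 148 (1.36%) met the fold at 2 h, 142 (1.31%) at 0 h and 112 (1.03%) at both, and 61 of the 112 were left out because their symbols begin with 1 of 27 prefixes, such as Ifi, Oas, Gbp, Irf and H2-. The KO against WT values below therefore describe the choice and carry no test. The working name of the set calls these genes less studied, but it holds such familiar genes as Eif2ak2, Adar, Tlr3, Il6 and Cd274. A further 3 genes, AI607873, Mnda and I830012O16Rik, passed under symbols that RefSeq lists as synonyms of Ifi207, Ifi211 and Ifit3b. The prefix Ifi would have removed these RefSeq symbols. Gm12185 passed as well, though Irgb2b1, a synonym that RefSeq gives for it, begins with the left-out prefix Irg.

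RNA was sequenced in pairs of reads from NIH3T3 cells, a fibroblast line of Swiss albino mice, in 8 libraries that form 4 groups of 2. By their labels, 2 groups are Zmynd11 CRISPR KO cells and WT cells after 2 h with recombinant mouse interferon-beta at 100 units/ml. The other 2 groups are labelled KO cells and WT cells at 0 h with no agent. The labels name NIH3T3 as the source but the text on RNA extraction mentions embryonic fibroblasts. They do not say whether the KO is 1 clone or a pool, nor whether replicates were grown separately, so the p-values measure only a spread between libraries that may be technical.

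The targeted gene went against 2 of the 4 labels. Zmynd11, which encodes a reader of methylated histone H3.3, had 3.47 and 4.90 CPM under the KO 2 h label and 3.34 and 3.84 CPM under the WT 2 h label. It had 128 and 126 CPM under the KO 0 h label and 118 and 115 CPM under the WT 0 h label. Zmynd11 was thus low in all 4 libraries labelled 2 h and high in all 4 labelled 0 h, and it did not separate KO from WT. Ifit1, an antiviral protein that interferon induces strongly, had 415 and 397 CPM under the KO 2 h label and 1.81 and 4.19 CPM under the WT 2 h label. It had 182 and 219 CPM under the KO 0 h label and 1.17 and 1.31 CPM under the WT 0 h label, so it was high in all 4 libraries labelled KO and low in all 4 labelled WT. Every group below is called by its label for this reason, no library was regrouped, and what the labels stand for in these cells was not tested.

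Gene reads summed to 13671013 to 21299120 per library, so that 1 read was worth 0.0470 to 0.0731 CPM. The replicate 2 library labelled KO 0 h held reads in 17498 symbols, against 14847 to 15945 in the other 7. Fibroblast markers were abundant, with 10 of 11 above a mean of 1 CPM and a summed level of 19884 to 21570 CPM under the KO 2 h label, 19560 to 20998 under WT 2 h, 39566 to 39657 under KO 0 h and 44090 to 44175 under WT 0 h. Macrophage markers, of which 9 were in the tables and 7 had a mean above 1 CPM, summed to 60.8 to 97.0 CPM under KO 2 h, 76.1 to 78.5 under WT 2 h, 50.4 to 76.8 under KO 0 h and 42.9 to 44.1 under WT 0 h, with the higher KO value in replicate 2 at each time. The part of these markers in the results was not tested. In bulk RNA, a change in the number of cells that express a gene and a change in RNA per cell cannot be told apart.

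As background, type I interferons bind a receptor at the cell surface and switch on the transcription factor complex ISGF3. ISGF3 binds the interferon-stimulated response element (ISRE), a short repeat of GAAA on either strand, in front of many antiviral genes. Fibroblasts both make and respond to interferon-beta, and in most cells the response genes have a low tonic level without added interferon.

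Promoters were read to show where such elements lie in these genes. RefSeq for the GRCm38.p6 build matched 50 of the 51 genes, 47 by symbol and 3 by synonym, and gave a window of 250 bases before to 50 bases after the start for 42. An ISRE, searched as GAAA-NN-GAAA on both strands, was present in 13 of 42 genes (31.0%), in 26 of 40 genes that the prefixes left out (65.0%) and in 1079 of 27025 genes with such a window (3.99%). The other letters searched were GAS, the gamma-activated sequence (TTC-NNN-GAA), in 4 of 42 (9.52% against 9.55% of all), NF-kB (GGG-NN-TTTCC) in 2 of 42 (4.76% against 1.89%; Il6 and Tlr3) and AP-1 (TGA-N-TCA) in 7 of 42 (16.7% against 8.97%). No other motif overlapped an ISRE of these genes. A match describes letters and not binding, and the genes without a match may hold one outside the window.

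The stretches of 6 promoters that hold an ISRE are shown because these genes had the largest KO over WT differences at 0 h among the 13 holders. The capitals mark the ISRE, and each line runs 5′ to 3′ on the strand of the gene.
I830012O16Rik, chr19:34607739-34607842, plus strand: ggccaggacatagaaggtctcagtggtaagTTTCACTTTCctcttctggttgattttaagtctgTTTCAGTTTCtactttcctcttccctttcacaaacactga
Slfn8, chr11:83020819-83020888, minus strand: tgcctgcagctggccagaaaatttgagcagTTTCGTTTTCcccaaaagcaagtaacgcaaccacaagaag
Gm12185, chr11:48927218-48927287, minus strand: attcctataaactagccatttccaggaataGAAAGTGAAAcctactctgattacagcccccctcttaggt
Apol9a, chr15:77411094-77411169, minus strand: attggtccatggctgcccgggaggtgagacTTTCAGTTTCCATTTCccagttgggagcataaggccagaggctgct
Apol9b, chr15:77729005-77729071, plus strand: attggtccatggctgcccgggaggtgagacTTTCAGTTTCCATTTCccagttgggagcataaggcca
Mndal, chr1:173880188-173880253, minus strand: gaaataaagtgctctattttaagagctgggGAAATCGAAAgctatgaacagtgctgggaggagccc
The Apol9a and Apol9b stretches, on opposite strands of the same chromosome, were equal at all 67 bases compared, and both carry 2 overlapping matches. I830012O16Rik carries 2 separate matches farther from the start than those of the other stretches printed here. The other holders were AI607873, Clec2d, Eif2ak2, Mitd1, Mnda, Slfn9 and Tcirg1, and 8 of the 13 genes had a match within the 100 bases before the start.

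**Figure D1:**
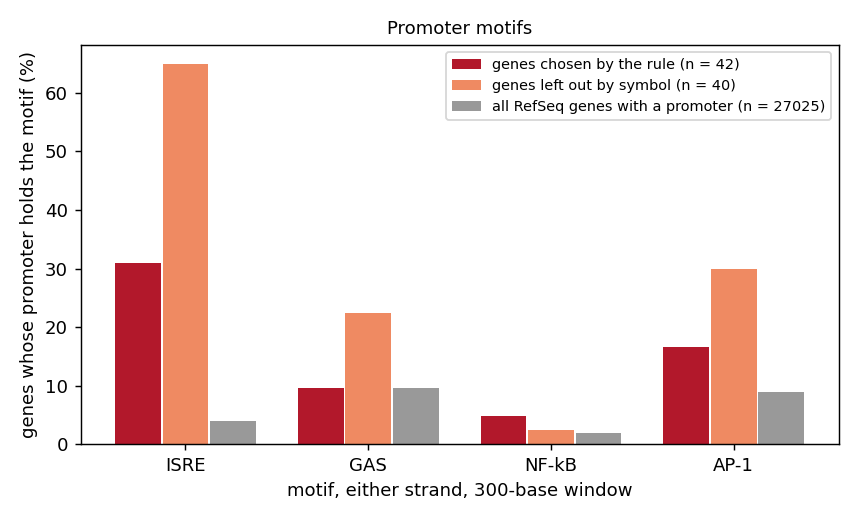
Percentage of genes whose promoter window of 300 bases holds each motif on either strand, for the 42 genes chosen by the rule that have a window, for 40 genes left out by symbol and for all 27025 RefSeq genes with a window. The ISRE was held by 31.0% of the chosen genes, 65.0% of the genes left out by symbol and 3.99% of all genes, and GAS by 9.52% of the chosen genes and 9.55% of all.

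Several of the genes lie next to each other in RefSeq's gene order, counted over only those RefSeq genes that are also among the counted symbols. Other RefSeq genes may lie between them. Sp110, Sp140 and Sp100 are consecutive on chromosome 1, where AI607873, Mndal and Mnda also lie together with only Ifi204 between them, and chromosome 1 holds 10 of the genes in all. Slfn9 and Slfn8 are neighbours on chromosome 11, Apol7a and Apol9a on chromosome 15 with Apol6 separated from them by Rbfox2, and BC051226 and Daxx on chromosome 17. Overlap was read from whole gene spans and not from exons or strand. Reads from a stretch that genes share may not be told apart without strand. The values of 13 genes whose spans overlap another gene of the tables are therefore uncertain. These are Dtx3l with Parp9, Cd274 with Plgrkt, Adar with Chrnb2, Mitd1 with Lipt1, Tor1aip1 with Tor1aip2, Znfx1 with 1500012F01Rik, I830012O16Rik with Gm14446, Apol6 with Mb, AW011738 with 2310042D19Rik, and the pairs Sp110 with Sp140 and Eif2ak2 with Gm6548. The near-identical pair Apol9a and Apol9b, the Slfn genes, the Ifi200 genes and I830012O16Rik, a close relative of Ifit3, can also lose or exchange reads where copies are alike.

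The 51 genes together took 0.445 and 0.405% of gene reads under the KO 2 h label and 0.127 and 0.129% under the WT 2 h label. They took 0.281 and 0.320% under the KO 0 h label and 0.102% in both libraries labelled WT 0 h. The median gene had 27.3 and 25.7 CPM under KO 2 h, 7.87 and 7.38 CPM under WT 2 h, 16.025 and 20.5 CPM under KO 0 h and 5.17 and 4.79 CPM under WT 0 h. In CPM, both KO 2 h libraries were above both KO 0 h libraries for 29 genes, against 46.8% of all genes tested, and below both for 10, against 30.4%.

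**Figure D2:**
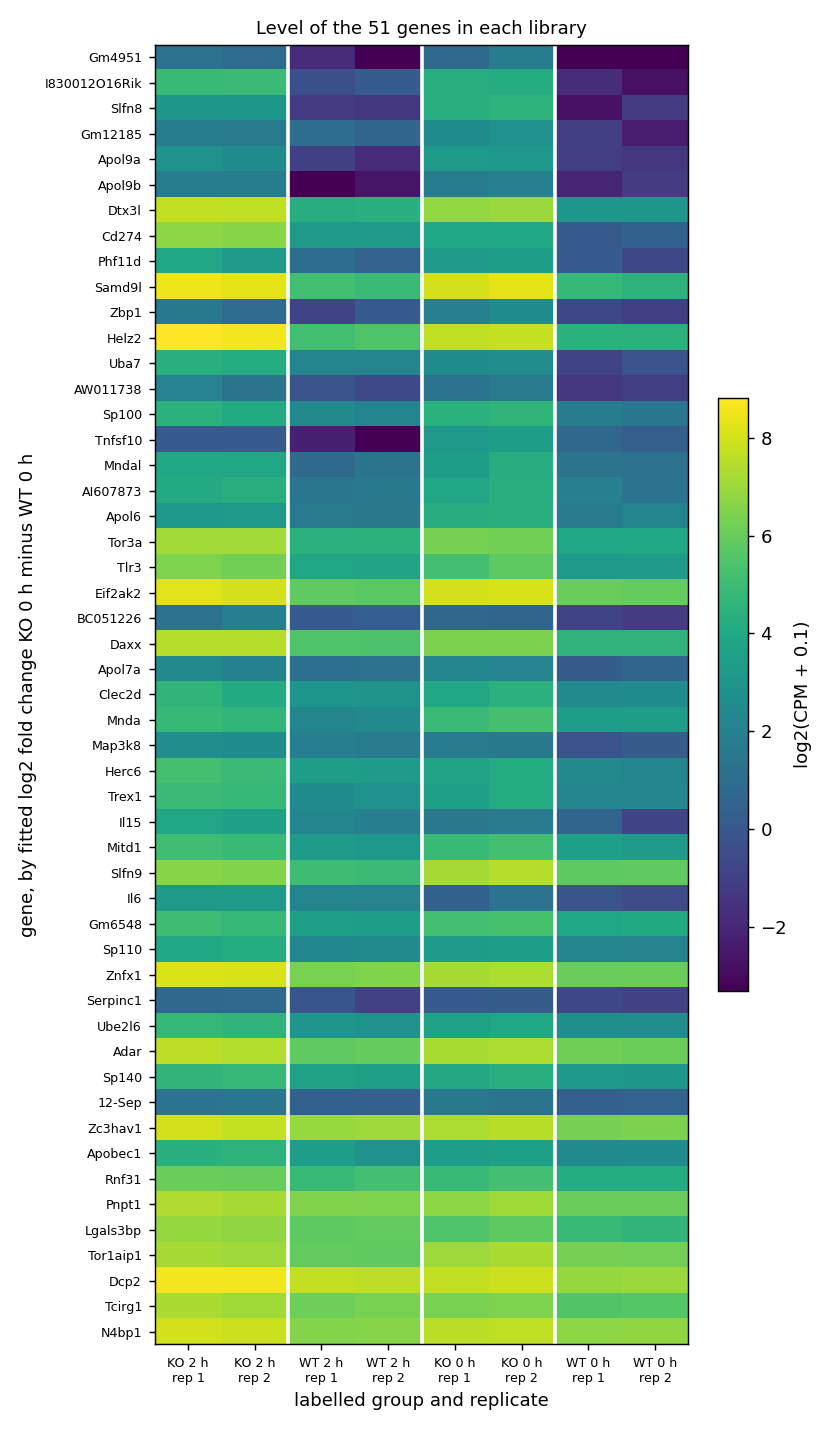
CPM of each of the 51 genes in each of the 8 libraries, on a log2(CPM + 0.1) colour scale from dark (low) to yellow (high), with genes in rows by their KO 0 h minus WT 0 h log2 fold change and libraries in columns by label and replicate. The columns labelled KO are brighter than those labelled WT of the same time for every gene, which is what the rule required, and the median gene had 27.3 CPM in the first KO 2 h library and 4.79 CPM in the second WT 0 h library.

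The size of the KO over WT difference, which the rule bounded only from below, varied widely. On the log2 scale fitted by edgeR it had a median of 1.69 at 2 h and of 1.75 at 0 h. Without Gm4951, Apol9b and Tnfsf10, whose WT groups had at most 3 reads at one of the times, it ranged from 0.81 to 5.13 at 2 h and from 0.85 to 7.30 at 0 h. The medians of all 12807 genes tested were -0.005 and 0.005. The difference was above 2, a 4-fold change, for 21 genes at 2 h, for 22 at 0 h and for 18 at both times. Of the other 48 genes, 26 had the larger fitted difference at 2 h and 22 at 0 h. As a description, 45 genes passed an adjusted p of 0.05 at 2 h, where 1.59% of all genes were called higher, and 49 at 0 h, where 2.65% were called higher, and nothing is read from these counts. The genes nearest the threshold were Lgals3bp with a smaller ratio of 1.54, Gm12185 with 1.60 and Il6 with 1.61 on the inside, and Ppm1k with 1.495, Slfn3 and Casp4 with 1.48 each on the outside. Ppm1k, a mitochondrial phosphatase, had 27.3 and 21.4 CPM under KO 2 h, 11.9 and 12.9 under WT 2 h, 4.21 and 6.59 under KO 0 h and 2.30 and 2.82 under WT 0 h. Slfn3, another schlafen, had 6.21 and 5.41 CPM under KO 2 h, 3.11 and 3.48 under WT 2 h, 10.2 and 11.3 under KO 0 h and 5.87 and 6.86 under WT 0 h. Casp4, an inflammatory caspase, had 29.0 and 28.1 CPM under KO 2 h, 19.0 and 16.9 under WT 2 h, 18.6 and 19.6 under KO 0 h and 9.91 and 9.58 under WT 0 h. These 3 genes were picked for a smaller ratio just under 1.5. That every KO library was above the WT libraries of its time therefore follows from the choice.

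**Figure D3:**
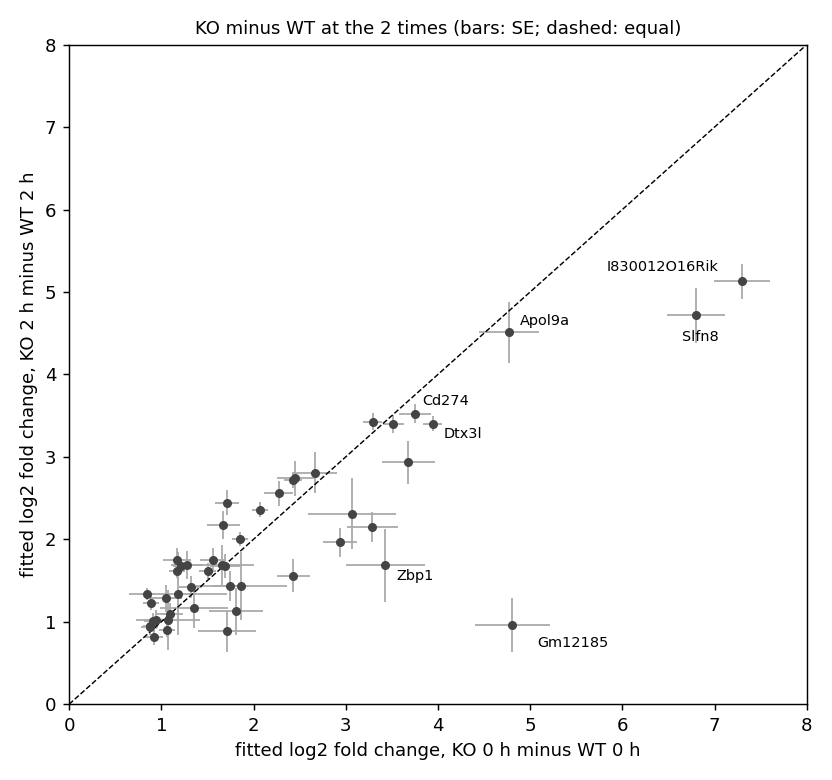
Fitted log2 fold change of KO minus WT at 2 h (vertical) against that at 0 h (horizontal) for 48 of the 51 genes, with bars of 1 SE and a dashed line where both are equal. Gm4951, Apol9b and Tnfsf10 are left out because a WT group had at most 3 reads; Gm12185 stands below the line at 0.96 (2 h) and 4.81 (0 h), and I830012O16Rik lies farthest to the right at 7.30 (0 h).

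Change with time was not used by the rule and was tested with edgeR over all 12807 genes, with Benjamini-Hochberg adjustment. Under the KO label, 23 of the 51 genes were higher at 2 h than at 0 h and 11 were lower, against 30.0% and 31.2% of all genes tested. Under the WT label, 25 were higher and 9 were lower, against 30.1% and 31.1% of all genes. The counts for groups of genes by role below stand against these same shares, and nothing is read from them. The median change of the 51 was 0.20 on the log2 scale under KO and 0.42 under WT. Zmynd11 differed between the same libraries, as given above, and its part in these changes was not tested. Without KO 2 h replicate 2, 6 genes were lower under the KO label, and without KO 0 h replicate 2, 7 were. Scaling by library size alone moved the median of all genes by 0.15 under KO and 0.14 under WT, and gave 28 higher and 8 lower under KO and 28 higher and 9 lower under WT.

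By direction, 20 genes rose under both labels and 5 fell under both. The share of all genes with each joint pattern was not counted, so these numbers only describe the 51 genes. The 5 that fell were Tnfsf10, Mnda, Slfn9, Gm6548 and Tor1aip1. Gm12185 and Sp100 rose under WT and fell under KO. Genes that passed the test under a single label were Pnpt1, Phf11d and BC051226, higher under WT; Adar, Eif2ak2, N4bp1 and Apol9b, lower under WT; Trex1, Ube2l6 and Sp110, higher under KO; and Apol6, Slfn8, Apol9a and Zbp1, lower under KO. The remaining 10 genes, 12-Sep, AI607873, AW011738, Apol7a, Clec2d, Gm4951, Mitd1, Mndal, Samd9l and Serpinc1, passed neither. The rule sets a floor on the KO over WT difference at each time but does not use which of the 2 is larger. The difference between the 2, the interaction of label and time, was tested. The floor leaves out genes whose KO over WT difference vanishes or reverses at 1 time, so the count called depends partly on the choice. A gene called under 1 label is not thereby shown to differ between the labels. The interaction of label and time passed for 1 of the 51 genes, Gm12185, which was lower, where 0.0781% of all genes were called lower. No gene of the 51 was called higher by edgeR, against 0.0547% of all genes, while 9 had a positive and 8 a negative interaction at an unadjusted p below 0.05, and DESeq2 called 2 higher.

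**Figure D4:**
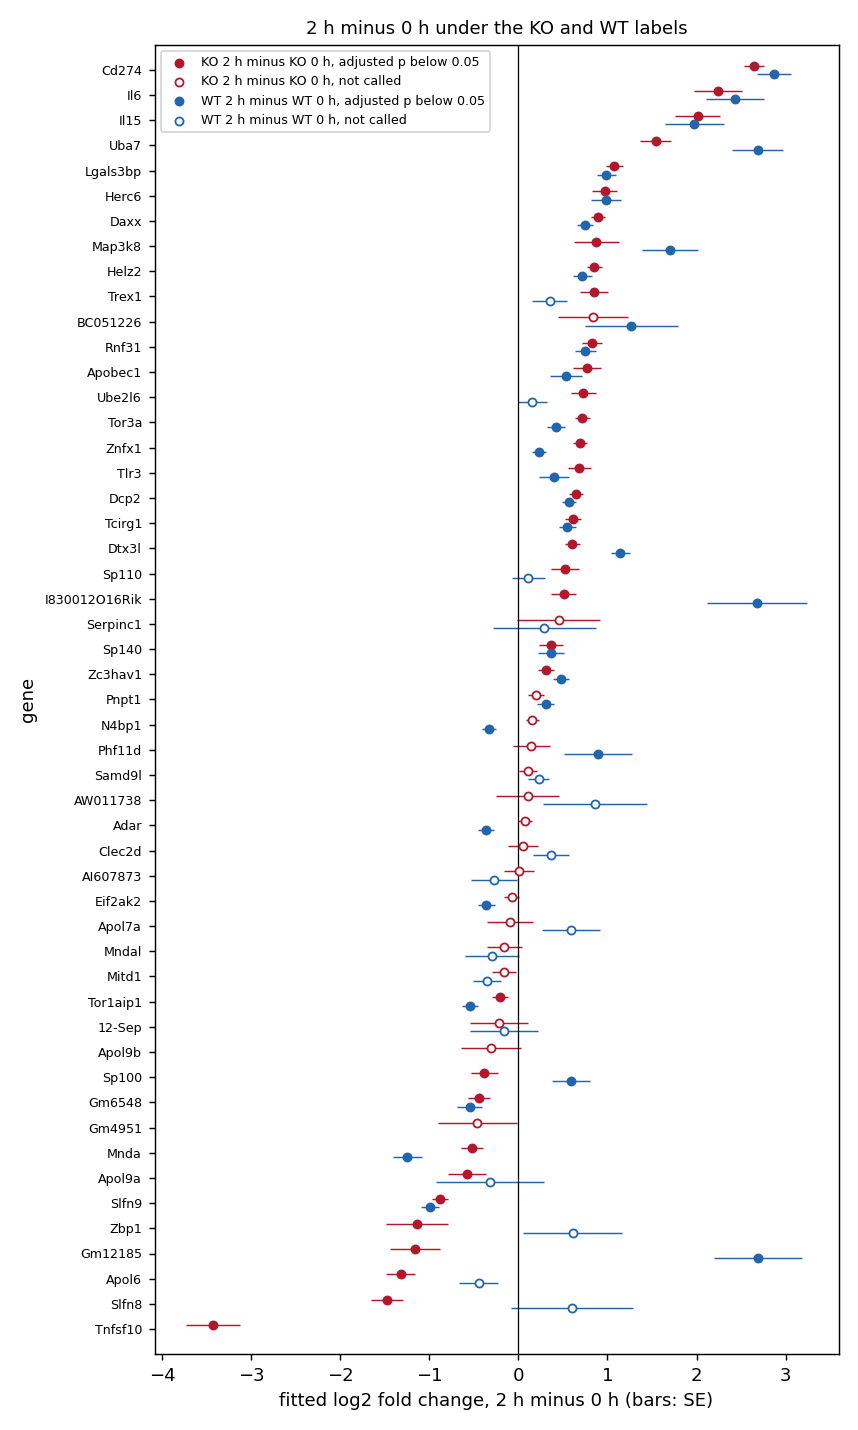
Fitted log2 fold change of 2 h minus 0 h for each gene under the KO label (red) and the WT label (blue), with bars of 1 SE and filled points where the adjusted p was below 0.05. WT points are not drawn for Gm4951, Apol9b and Tnfsf10, whose WT groups include at most 3 reads; 23 KO points are filled on the right and 11 on the left, and Gm12185 and Sp100 have filled points on both sides.

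Enzymes that attach ubiquitin or the ubiquitin-like protein Isg15 formed a group of 5, with a median KO over WT difference of 1.75 at 2 h and 1.69 at 0 h on the log2 scale. All 5 rose with time under the KO label and 4 of 5 under the WT label. Uba7, the activating enzyme that starts Isg15 transfer, had 20.6 and 17.6 CPM under KO 2 h, 4.36 and 4.37 under WT 2 h, 5.80 and 6.07 under KO 0 h and 0.470 and 0.751 under WT 0 h. The groups did not overlap, and the WT 2 h libraries came next below those of KO 0 h. Uba7 rose with time by 1.54 (SE 0.18, edgeR adjusted p = 9.29e-08) under KO and by 2.69 (SE 0.29, edgeR adjusted p = 3.55e-08) under WT. Herc6, the main Isg15 ligase of the mouse, had 37.2 and 30.5 CPM under KO 2 h, 11.1 and 10.3 under WT 2 h, 13.8 and 17.7 under KO 0 h and 5.17 and 4.70 under WT 0 h. Its change with time was 0.97 (SE 0.14) under KO and 0.98 (SE 0.17) under WT, and both passed the test. Ube2l6, the conjugating enzyme between them, changed by 0.73 (SE 0.14, edgeR adjusted p = 9.28e-05) under KO and by 0.15 (SE 0.16, edgeR adjusted p = 0.433) under WT. The 3 steps of the Isg15 pathway were therefore all among the 51 genes, although Isg15 itself was left out by its prefix.

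Dtx3l, a ubiquitin ligase that works with Parp9, had 212 and 200 CPM under KO 2 h, 18.8 and 20.5 under WT 2 h, 116 and 129 under KO 0 h and 8.22 and 7.94 under WT 0 h. The 4 groups did not overlap, and both KO groups were far above both WT groups. Its KO over WT difference was 3.40 (SE 0.09) at 2 h and 3.94 (SE 0.10) at 0 h, the 5 enzymes' largest at both times. Rnf31, a subunit of the linear ubiquitin ligase, had the smallest, at 1.03 (SE 0.11) and 0.95 (SE 0.12).

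Sensors and enzymes that handle foreign or aberrant RNA and DNA were the most numerous group, with 16 genes. Their median KO over WT difference was 1.93 at 2 h and 1.70 at 0 h. Under KO, 8 rose and 2 fell with time, and under WT, 8 rose and 4 fell. Helz2, a helicase and nuclear receptor coactivator, had 453 and 391 CPM under KO 2 h, 35.1 and 44.1 under WT 2 h, 203 and 219 under KO 0 h and 21.6 and 22.0 under WT 0 h. It rose with time by 0.85 (SE 0.09, edgeR adjusted p = 2.15e-08) under KO and by 0.72 (SE 0.11, edgeR adjusted p = 3.80e-06) under WT. Helz2 was thus ordered KO 2 h, KO 0 h, WT 2 h, WT 0 h, with no overlap between groups.

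Dcp2, which removes the cap of messenger RNA before decay, had 393 and 385 CPM under KO 2 h, 208 and 197 under WT 2 h, 209 and 240 under KO 0 h and 121 and 127 under WT 0 h. Here the WT 2 h libraries lay close to those of KO 0 h. Dcp2, Helz2 and Samd9l had the most reads of the 51 genes, a comparison that is not per gene length. The zinc-finger proteins Zc3hav1, which binds viral RNA rich in CpG, and Znfx1, a helicase-like RNA sensor, both rose with time under both labels. The WT call of Znfx1 was lost when any of 3 single WT libraries was left out, with adjusted p up to 0.206, and the KO call of Zc3hav1 was lost without KO 2 h replicate 1, at an adjusted p of 0.0948. Pnpt1, an RNA-degrading enzyme of mitochondria, rose under WT by 0.30 (SE 0.09, edgeR adjusted p = 0.00806) and had a change of 0.20 (SE 0.09, edgeR adjusted p = 0.0692) under KO. The WT call was lost without WT 0 h replicate 2, at an adjusted p of 0.0641.

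Tlr3, the endosomal receptor of double-stranded RNA, rose by 0.68 (SE 0.13, edgeR adjusted p = 0.000162) under KO and by 0.40 (SE 0.17, edgeR adjusted p = 0.0478) under WT. Its WT call was lost without WT 2 h replicate 1, WT 2 h replicate 2 or WT 0 h replicate 1, with adjusted p up to 0.232. Eif2ak2, the kinase PKR that stops translation, had 299 and 253 CPM under KO 2 h, 57.0 and 51.8 under WT 2 h, 251 and 275 under KO 0 h and 65.2 and 61.7 under WT 0 h. Its KO groups overlapped in time, while the WT group fell by 0.36 (SE 0.09, edgeR adjusted p = 0.00170), a call lost without WT 2 h replicate 2, at an adjusted p of 0.0696. Adar, which edits adenosine in double-stranded RNA, fell under WT by 0.37 (SE 0.09, edgeR adjusted p = 0.000863) and had a change of 0.08 (SE 0.08, edgeR adjusted p = 0.437) under KO. N4bp1, a ribonuclease that also restrains NF-kB signalling, fell under WT by 0.33 (SE 0.08, edgeR adjusted p = 0.000709). Apobec1, a cytidine deaminase that edits RNA, rose under both labels, though under WT its call was lost when any of 3 single libraries was left out, with adjusted p up to 0.295.

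Mnda, Mndal and AI607873 belong to the Ifi200 family of nuclear proteins that bind DNA. Mnda had 27.6 and 25.7 CPM under KO 2 h, 4.64 and 5.25 under WT 2 h, 31.1 and 38.2 under KO 0 h and 10.6 and 10.7 under WT 0 h. It fell with time by 0.52 (SE 0.12, edgeR adjusted p = 0.000797) under KO and by 1.25 (SE 0.16, edgeR adjusted p = 4.81e-07) under WT. Mndal, whose promoter is printed above, had 15.1 and 13.8 CPM under KO 2 h, 1.75 and 2.42 under WT 2 h, 10.7 and 18.7 under KO 0 h and 2.44 and 2.21 under WT 0 h. Within each label the times overlapped for Mndal and likewise for AI607873, so these neighbours on chromosome 1 differed from Mnda in their test results. Trex1, the main exonuclease of cytosolic DNA, rose under KO by 0.85 (SE 0.15, edgeR adjusted p = 5.15e-05). Zbp1, which senses Z-form nucleic acid and triggers cell death, had 2.89 and 1.83 CPM under KO 2 h, 0.453 and 1.06 under WT 2 h, 3.85 and 5.82 under KO 0 h and 0.516 and 0.376 under WT 0 h. It fell with time by 1.14 (SE 0.35, edgeR adjusted p = 0.00705) under KO, a call lost without KO 0 h replicate 2 or KO 2 h replicate 2, with adjusted p of 0.00146 to 0.0912 over all alternatives.

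I830012O16Rik, which RefSeq names Ifit3b and which belongs to the Ifit family of RNA-binding antiviral proteins, was read mostly under the KO labels. It had 29.6 and 31.0 CPM under KO 2 h, 0.679 and 1.06 under WT 2 h, 19.8 and 18.5 under KO 0 h and 0.188 and 0.0470 under WT 0 h. The difference of KO over WT was 5.13 (SE 0.22) at 2 h and 7.30 (SE 0.30) at 0 h. It rose with time under KO by 0.51 (SE 0.14, edgeR adjusted p = 0.00311) and under WT by 2.68 (SE 0.57, edgeR adjusted p = 0.000293), with few reads in the WT libraries at 0 h.

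The nuclear body and chromatin proteins were Sp100, Sp110, Sp140, Daxx and Phf11d, with median KO over WT differences of 1.97 at 2 h and 1.85 at 0 h. Under KO, 3 rose and 1 fell with time, and under WT, 4 rose. Daxx, a chaperone of histone H3.3 that joins PML bodies, rose by 0.90 (SE 0.08, edgeR adjusted p = 1.44e-09) under KO and by 0.75 (SE 0.09, edgeR adjusted p = 1.70e-07) under WT. Phf11d, a PHD-finger protein, had 13.9 and 10.0 CPM under KO 2 h, 1.87 and 1.298 under WT 2 h, 9.04 and 10.7 under KO 0 h and 1.03 and 0.517 under WT 0 h. Its KO libraries overlapped in time and its WT libraries did not. The WT change of Phf11d was 0.89 (SE 0.38, edgeR adjusted p = 0.0483), and this call was lost when the 4 WT libraries were fitted alone. It was also lost without WT 0 h replicate 2 or WT 2 h replicate 1. Sp100, a core PML-body protein, fell under KO by 0.38 (SE 0.15, edgeR adjusted p = 0.0304) and rose under WT by 0.59 (SE 0.21, edgeR adjusted p = 0.0204). Leaving out single libraries ended both Sp100 calls. With every library kept, the KO call of Sp100 was also lost under scaling by library size alone and under DESeq2. The neighbours of Sp100, Sp110 and Sp140, of the same family of chromatin readers, rose under KO by 0.52 (SE 0.15) and 0.37 (SE 0.13). The Sp140 calls under both labels were also lost without single libraries. The WT call of Sp140 was lost as well with no filter on low counts and under DESeq2.

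The 3 largest rises with time under KO were those of Cd274, Il6 and Il15, which belong to the ligands, cytokines and signalling proteins. Of these 7 genes, 5 rose and 1 fell under each label. Cd274, the checkpoint ligand PD-L1, had 107 and 101 CPM under KO 2 h, 9.05 and 9.21 under WT 2 h, 14.5 and 15.5 under KO 0 h and 0.986 and 1.27 under WT 0 h. It rose by 2.65 (SE 0.11, edgeR adjusted p = 3.96e-15) under KO and by 2.87 (SE 0.19, edgeR adjusted p = 1.34e-11) under WT, and the 4 groups were fully separate. Il15, a cytokine that sustains natural killer and memory T cells, had 14.5 and 12.2 CPM under KO 2 h, 4.70 and 3.66 under WT 2 h, 2.83 and 3.20 under KO 0 h and 1.46 and 0.470 under WT 0 h. For Il15 the WT 2 h libraries lay above those of KO 0 h.

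Il6, an inflammatory cytokine, had 9.63 and 9.07 CPM under KO 2 h, 4.30 and 4.13 under WT 2 h, 1.28 and 2.37 under KO 0 h and 0.798 and 0.610 under WT 0 h. It rose by 2.24 (SE 0.27, edgeR adjusted p = 1.88e-07) under KO and by 2.43 (SE 0.32, edgeR adjusted p = 9.64e-07) under WT. For Il6 and Il15 both time changes were larger than both KO over WT differences, which for Il6 were 1.16 (SE 0.24) at 2 h and 1.36 (SE 0.37) at 0 h. Lgals3bp, a secreted glycoprotein that binds galectins, had 121 and 112 CPM under KO 2 h, 56.9 and 60.3 under WT 2 h, 44.4 and 55.6 under KO 0 h and 28.9 and 24.7 under WT 0 h, and it rose under both labels. Map3k8, a kinase upstream of ERK, rose by 0.88 (SE 0.25, edgeR adjusted p = 0.00484) under KO and by 1.70 (SE 0.31, edgeR adjusted p = 6.13e-05) under WT. Clec2d, a ligand of inhibitory receptors on natural killer cells, passed the test under neither label.

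Tnfsf10, the death ligand TRAIL, moved the other way. It had 1.01 and 1.02 CPM under KO 2 h, 0.113 and 0 under WT 2 h, 9.14 and 10.8 under KO 0 h and 1.55 and 1.17 under WT 0 h. Both 2 h groups were below both 0 h groups. It fell by 3.43 (SE 0.31, edgeR adjusted p = 1.93e-09) under KO, the largest fall of the 51 genes under that label. Under WT, 2 reads at 2 h stood against 58 at 0 h, a ratio of 0.0385 (exact 95% counting interval 0.00456 to 0.146), and the edgeR adjusted p was 3.86e-06. At 2 h, 35 KO reads stood against 2 WT reads, a ratio of 17.7 (4.56 to 152). These intervals cover counting error only.

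**Figure D5:**
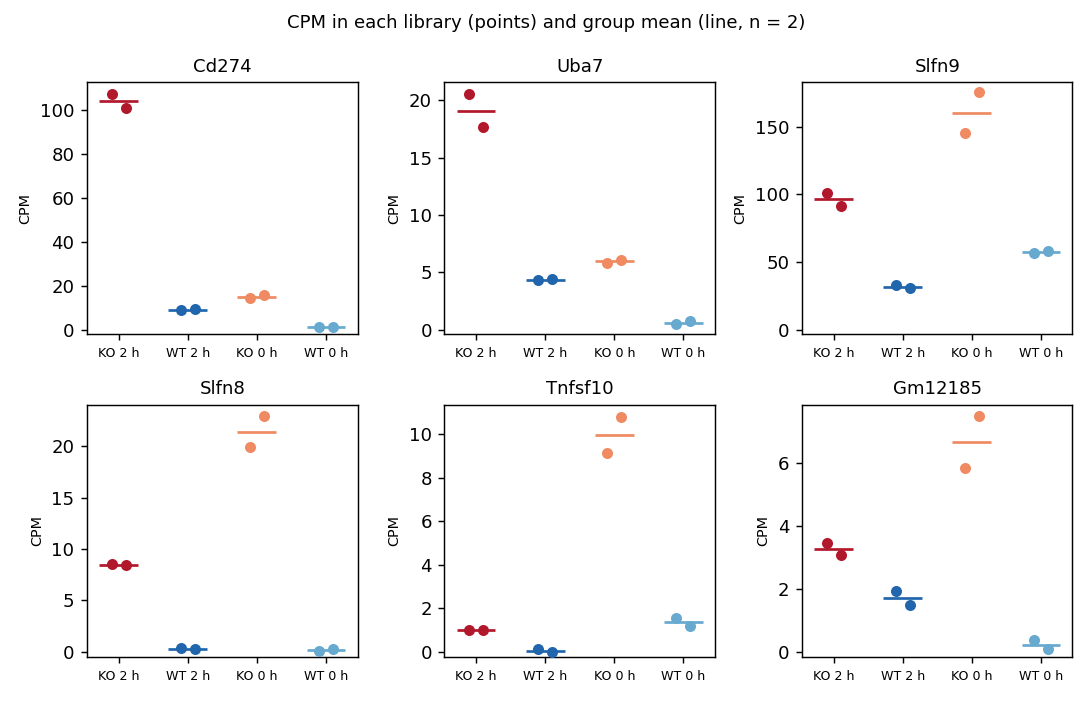
CPM in each library on linear axes from 0 for Cd274, Uba7, Slfn9, Slfn8, Tnfsf10 and Gm12185, with the groups in the order KO 2 h, WT 2 h, KO 0 h and WT 0 h with a point for each library and a line at the group mean (n = 2). Cd274 reached 107 CPM under KO 2 h, while Slfn8 and Tnfsf10 were highest under KO 0 h, at 22.9 and 10.8 CPM.

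Slfn8 and Slfn9, schlafen proteins that restrict growth and translation, and Samd9l, which restricts viruses and blood cell growth, had median KO over WT differences of 3.40 at 2 h and 3.52 at 0 h. Samd9l had 369 and 321 CPM under KO 2 h, 35.1 and 31.0 under WT 2 h, 261 and 318 under KO 0 h and 28.4 and 23.0 under WT 0 h. Its change with time did not pass the test, at 0.11 (SE 0.10) under KO and 0.23 (SE 0.12) under WT. Slfn8 had 8.52 and 8.41 CPM under KO 2 h, 0.340 and 0.295 under WT 2 h, 19.9 and 22.9 under KO 0 h and 0.0470 and 0.329 under WT 0 h. It fell under KO by 1.48 (SE 0.18, edgeR adjusted p = 2.48e-07), and its WT libraries held few reads at both times. Slfn9, its neighbour, had 101 and 91.2 CPM under KO 2 h, 32.6 and 30.9 under WT 2 h, 145 and 176 under KO 0 h and 56.9 and 57.9 under WT 0 h. Slfn9 fell by 0.88 (SE 0.09, edgeR adjusted p = 1.43e-08) under KO and by 0.99 (SE 0.10, edgeR adjusted p = 8.45e-09) under WT.

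The apolipoprotein L genes Apol6, Apol7a, Apol9a and Apol9b, whose products act on membranes and, for some, on pathogens or cell death, had median differences of 3.03 at 2 h and 3.19 at 0 h. With time 2 of the 4 fell under KO and 1 fell under WT, and the other changes did not pass the test. Apol9a had 7.32 and 5.92 CPM under KO 2 h, 0.396 and 0.177 under WT 2 h, 9.09 and 8.89 under KO 0 h and 0.376 and 0.282 under WT 0 h. Apol9b had 3.27 and 3.29 CPM under KO 2 h, 0 and 0.0590 under WT 2 h, 3.49 and 3.84 under KO 0 h and 0.141 and 0.329 under WT 0 h. The copies thus had alike patterns across the 8 libraries, with WT levels of a few reads. At 2 h, 113 KO reads of Apol9b stood against 1 WT read, a ratio of 114.5 (exact 95% counting interval 20.2 to 4564). Under WT, 1 read at 2 h stood against 10 at 0 h, a ratio of 0.112 (0.00258 to 0.785) with an edgeR adjusted p of 0.0340. That WT call was lost under DESeq2, and also without WT 0 h replicate 2 or WT 2 h replicate 1. Apol9a fell under KO by 0.58 (SE 0.22, edgeR adjusted p = 0.0251), a call lost under scaling by library size alone and under DESeq2. It was also lost without KO 0 h replicate 1, KO 0 h replicate 2 or KO 2 h replicate 2.

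Apol6 had 8.76 and 8.997 CPM under KO 2 h, 3.23 and 2.83 under WT 2 h, 18.9 and 21.2 under KO 0 h and 3.19 and 4.32 under WT 0 h. It fell under KO by 1.32 (SE 0.16, edgeR adjusted p = 2.75e-07), and its WT libraries overlapped between times.

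Gm12185 and Gm4951, for which RefSeq gives the synonyms Irgb2b1 and Ifgga2, belong to the immunity-related GTPases that attack vacuoles of intracellular pathogens. Gm12185 had 3.47 and 3.07 CPM under KO 2 h, 1.92 and 1.48 under WT 2 h, 5.86 and 7.48 under KO 0 h and 0.376 and 0.0940 under WT 0 h. It was highest under KO 0 h and lowest under WT 0 h, with both 2 h groups in between. With time it fell under KO by 1.16 (SE 0.28, edgeR adjusted p = 0.00104) and rose under WT by 2.69 (SE 0.49, edgeR adjusted p = 6.34e-05). The interaction was -3.85 (SE 0.56, edgeR adjusted p = 0.00239), and it was lost without WT 2 h replicate 1, with adjusted p of 3.07e-08 to 0.0736 over all alternatives that gave one. Gm4951 had 2.21 and 1.83 CPM under KO 2 h, 0.170 and 0 under WT 2 h, 1.70 and 3.45 under KO 0 h and 0 in both WT 0 h libraries. At 2 h, 71 KO reads stood against 3 WT reads, a ratio of 24.0 (exact 95% counting interval 7.88 to 119). At 0 h, 87 KO reads stood against 0, so Gm4951 was at least 35.8-fold higher under KO, counting 3 reads over the WT group as the limit that a count of 0 allows.

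The membrane and organelle proteins, with which the coagulation inhibitor Serpinc1 was counted, had the lowest median KO over WT differences of the 9 groups. These were 1.34 at 2 h and 1.18 at 0 h. Both medians are the values of Serpinc1, a gene with low counts, so they depend on its placing in this group. Nothing is read from the ranking. Tor1aip1, which activates torsins at the inner nuclear membrane, had 144 and 130 CPM under KO 2 h, 60.6 and 57.7 under WT 2 h, 131 and 156 under KO 0 h and 79.3 and 77.2 under WT 0 h. It fell under WT by 0.54 (SE 0.09, edgeR adjusted p = 1.72e-05). Its KO libraries overlapped between times, and its fall there of 0.21 (SE 0.09, edgeR adjusted p = 0.0421) was lost under 11 alternatives, with adjusted p of 0.0104 to 0.584. Tor3a, a torsin ATPase, rose under KO by 0.72 (SE 0.09, edgeR adjusted p = 1.94e-07) and had the largest KO over WT difference of these 5 genes, 2.72 (SE 0.10) at 2 h. Tcirg1, a subunit of the vacuolar proton pump, rose under both labels. Mitd1, which acts at the end of cell division, and Serpinc1, the coagulation inhibitor antithrombin, passed under neither label, and Serpinc1 reached at most 1.68 CPM in a library.

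The last 4 genes have no role given here. AW011738 and BC051226 are long non-coding RNAs and Gm6548 is a transcribed pseudogene in RefSeq, and the symbol 12-Sep is 1 of 25 in the tables that have the form of a calendar date and matched no RefSeq gene. Gm6548 had 33.3 and 27.1 CPM under KO 2 h, 11.6 and 11.2 under WT 2 h, 36.2 and 38.4 under KO 0 h and 13.8 and 16.4 under WT 0 h. It fell by 0.44 (SE 0.12, edgeR adjusted p = 0.00299) under KO and by 0.55 (SE 0.14, edgeR adjusted p = 0.00167) under WT, and the KO call was lost without KO 2 h replicate 2, at an adjusted p of 0.0760. The span of Gm6548 overlaps that of Eif2ak2, so reads that fall where the pair overlaps may not be told apart. BC051226, the neighbour of Daxx, rose under WT by 1.27 (SE 0.52, edgeR adjusted p = 0.0396). That call was lost under DESeq2 and when any 1 of the 4 WT libraries was left out.

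Around the 51 genes, a list of 97 lesser-known interferon genes, which holds 29 of them, also held genes outside the 51 that were higher under KO. Of these, Bst2 and Xaf1 met the folds and were left out by symbol, and the others did not meet the rule. Of its 53 tested genes outside the 51, 26 were called higher under KO than WT at 2 h and 25 at 0 h, against the 1.59% and 2.65% of all genes given above. By edgeR 0 were called lower at either time, where 0.00781% of all genes were called lower at 2 h and 1.27% at 0 h. Of the 53, 0 were lower at an unadjusted p below 0.05, and DESeq2 called 0 genes of the whole list lower. Without Bst2 and Xaf1, 24 of the remaining 51 genes of the list were higher at 2 h and 23 at 0 h. The median difference of the 53 was 0.52 at 2 h and 0.41 at 0 h, against medians of all genes near 0. With time, 22 of the 53 rose (41.5%) and 11 fell (20.8%) under KO, against 30.0% and 31.2% of all genes. Under WT, 19 rose (35.8%) and 14 fell (26.4%), against 30.1% and 31.1% of all genes. The list was chosen with results of these data known and is not independent evidence of its direction.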

How the data were processed

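The authors deposited 1 table of raw read counts per library, with a whole number of reads for each of 23304 gene symbols and 4 summary lines. The mm9 build, HTSeq, STAR 2.5.2b and bcl2fastq 2.15 are named per the submitters' processing notes, without an annotation or a strand setting. The summary lines, 36.9 to 43.2% of all reads with 14.1 to 17.0% mapped to several places, were left out. Paralogs alike in sequence can therefore lose reads.

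CPM in the text are counts over the sum of gene rows. Counts were fitted with edgeR 4.0.16 in R 4.3.3 (TMM scaling, filterByExpr at its usual count of 10 and total of 15, robust quasi-likelihood test, 1 model over 8 libraries and 4 groups, 4 residual degrees of freedom). All 51 genes were among the 12807 tested, the biological coefficient of variation was 6.74%, and p-values were adjusted by Benjamini-Hochberg over all genes and called below 0.05. The SE of a log2 fold change is its size over the square root of F. The steps were tested on simulated counts. Exact intervals and the limit of 3 reads for a count of 0 cover counting error only.

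RefSeq tables of GRCm38.p6, a build other than that of the counts, gave names, gene order and promoters. Motifs were searched on both strands. Values in every library were given for the 10 genes with the largest KO minus WT log2 fold change at each time, for up to 6 called genes in each direction of each other comparison, for the 3 genes with the most CPM, for the 3 genes on each side nearest the threshold and for the 6 printed promoters. The genes, lists, roles and naming rule were chosen with earlier results of these data known. Alternatives were other scalings (library size, RLE), no filter or a CPM filter, a replicate block, each library left out, the 4 libraries compared alone, DESeq2 1.42.0, and other thresholds of the rule.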

Additional observations from a re-analysis of the deposited data

Results flagged for a closer look

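Gm12185 was flagged because its change with time differed between the labels by a test of the difference itself. The interaction, the 2 h minus 0 h change under KO less that under WT, was -3.85 (SE 0.56, edgeR adjusted p = 0.00239). Both KO libraries at 2 h were below both KO libraries at 0 h, and both WT libraries at 2 h were above both WT libraries at 0 h. The WT 0 h libraries held 0.376 and 0.0940 CPM, so the difference rests on few reads, and the call was lost without WT 2 h replicate 1 (adjusted p = 0.0736; 3.07e-08 to 0.0736 over the alternatives that gave one). DESeq2 gave -3.88 with no adjusted p. Groups of 2 libraries are too small to single out a library that stands apart.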

How the results depend on the processing

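A fold of 1.3 in the rule took 80 genes and a fold of 2 took 31. The stricter letters GAAAC-N-GAAA were in 4 of 42 promoters (9.52%), against 37.5% of the genes left out by symbol and 0.79% of all genes. Leaving out 1 library at a time gave 6 to 11 genes lower with time under KO, 0 to 2 with a higher and 0 to 1 with a lower interaction, and a median KO over WT difference at 2 h of 1.64 to 1.80. Without a filter 2 interactions were higher and 2 lower; with DESeq2, which gave no adjusted p for 31 of the 51 interactions, 2 were higher and 0 lower. Scaling by library size alone gave 11 genes of the lesser-known list lower with time under KO, against 17. With the replicate number as a block, 23 genes were higher and 10 lower with time under KO, 25 higher and 9 lower under WT, and 0 interactions were higher and 1 lower. Deviations of same-numbered libraries correlated at -0.053 to -0.005 over all 12807 genes tested, so no pairing showed at that scale. A shared origin that shows in few genes was not tested. Summed macrophage markers, for example, were higher in KO replicate 2 at each time, as given above. Of 69 called values of the 51 genes, 50 kept their call under every alternative, 19 lost it under at least 1, and 0 reversed. The causes were not tested. Low counts limit the 11 genes with at most 20 reads in a WT group: Gm4951, Apol9a, Apol9b, Tnfsf10, I830012O16Rik, Slfn8, Gm12185, AW011738, BC051226, Zbp1 and Serpinc1.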

Other observations

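A lower fold of 1.3 in the rule added 29 genes, of which 12 are in the list of lesser-known interferon genes. They include the PML body scaffold Pml, the DNA sensor cGAS under its older symbol Mb21d1, the adaptor Myd88, the regulator of class I genes Nlrc5, the galectins Lgals8 and Lgals9 and the torsin partner Tor1aip2. Pml had 216 and 176 CPM under KO 2 h, 75.9 and 93.3 under WT 2 h, 97.1 and 118 under KO 0 h and 66.0 and 65.1 under WT 0 h. Mb21d1 had 36.2 and 34.5 CPM under KO 2 h, 18.0 and 22.7 under WT 2 h, 66.4 and 87.2 under KO 0 h and 47.9 and 49.4 under WT 0 h, so that both 2 h groups were below both 0 h groups. Nlrc5 had 17.5 and 14.8 CPM under KO 2 h, 8.77 and 10.2 under WT 2 h, 3.96 and 4.60 under KO 0 h and 1.502 and 1.27 under WT 0 h, so that both 2 h groups were above both 0 h groups. These genes were named after their values were seen, and no test is given for them.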
